A study of Mus musculus with 15 samples.

Results

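The comparison described here asks whether the transcriptional effect of fibroblast growth factor 10 (FGF10) on mouse mammary epithelium changed between 36 h and 72 h. It is the difference of 2 differences: FGF10 minus control at 72 h, less FGF10 minus control at 36 h. It uses 12 of the 15 RNA-seq libraries of the study, 3 in each of 4 groups, and all 17683 genes that passed the filter on low counts, of 54456 in the deposited table. The organoids were epithelial pieces of wild-type mouse mammary gland, with no transgene or deleted gene named in any label. All 4 groups were kept in DMEM/F12 with L-alanyl-L-glutamine, insulin, transferrin and selenium, and penicillin and streptomycin. Each group grew beside beads that carried either FGF10 or, as control, bovine serum albumin (BSA), a carrier protein, and was collected at 36 h or at 72 h. The titles of the FGF10 libraries at 72 h are spelled "FGF0", while their treatment label says FGF10. No label says whether replicates came from separate animals or cultures, so the p-values measure the spread between these libraries, which may be technical. The 3 libraries at 0 h, with no bead, are no part of the comparison.

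FGF10 is a ligand made by mesenchyme that signals mainly through the epithelial splice form of the receptor FGFR2. The receptor activates the RAS-ERK cascade, which induces the transcription factors Etv4 and Etv5 and the feedback inhibitors Dusp6 and Sprouty. In the mammary gland this pathway is known for its part in bud formation, ductal branching and the directed movement of epithelium toward an FGF source. A difference between the 2 times can arise in the FGF10 groups, in the BSA groups or in both, so levels of all 4 groups are given for many of the genes named. Levels are CPM, counts scaled to the size of the library after TMM normalization, and differences are on the log2 scale with their standard error (SE).

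The 12 libraries held between 12438853 and 18732149 gene-assigned counts. Mammary epithelial markers (14 genes, among them Krt8, Krt14 and Epcam) summed to 18940 to 38500 CPM in every library and none was at 0 over any group. Markers of other cell types were present at lower levels. Schwann and nerve markers were highest in a BSA library at 36 h (221.5 CPM) and red blood cell markers in an FGF10 library at 36 h (3.99 CPM). Those of the remaining types peaked in the BSA group at 72 h. There the 13 adipocyte markers together reached 526.5 to 531.8 CPM (20.74 to 126.9 CPM in the other 3 groups), the 21 immune markers 464.2 to 557.4 CPM (elsewhere 103.3 to 291.3 CPM) and the 20 endothelial markers 165.1 to 405.2 CPM (elsewhere 27.83 to 139.8 CPM). FGF10 36 h replicate 4 stood apart, with 1.11% of counts from mitochondrially encoded genes against 3.6% and 3.97% in the other libraries of its group, and results are therefore also given without it. BSA 72 h replicates 2_1 and 2_2 were closer to each other than any other pair (mean chi-square per gene 4.6, against 10.5 and 12.9 for the other pairs of that group), and their numbering may mark a shared source. They differed by more than counting noise, which does not show that they came from separate cultures. They were kept as separate libraries, and the pair was also summed into 1 library as an alternative.

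The estimated FGF10 effect had the same sign at both times in 71.2% of all tested genes. No single gene passed the test for a change of that effect in the 12-library fit. At an adjusted p below 0.05 in edgeR's quasi-likelihood test, 0 of 17683 genes (0%) were called for the change, and the smallest adjusted p was 0.132. From here on, a call is one by that test in the 12-library fit, which has no block for replicate number, unless another tool or setting is named. At an unadjusted p below 0.05, 1228 genes (6.94%) stood out, 656 (3.71%) with a higher and 572 (3.23%) with a lower effect at 72 h. Other settings made some calls: DESeq2 called 49 genes and limma voom 17. The same edgeR test called 67 with a block for replicate number and 316 with no filter on low counts. Without FGF10 36 h replicate 4 the count by edgeR was again 0, and without BSA 36 h replicate 1 it was 3. The median gene had an SE of 0.32 and an unadjusted 95% interval reaching 0.68 to either side of its estimate. A call needs a small p after adjustment over all tested genes, so changes well above that size could also go uncalled with 3 libraries a group. The change of Wif1, for example, was 1.68 and was not called.

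The effects at the single times were large enough to call. At 36 h, 895 genes (5.06%) differed between FGF10 and BSA, 459 higher and 436 lower with FGF10. At 72 h, 1871 genes (10.6%) differed, 1043 higher and 828 lower. With the BSA 72 h pair summed these counts were 523 and 991, so the larger number at 72 h is not a test of a larger effect. The median size of the effect over all tested genes was 0.27 at 36 h and 0.28 at 72 h. In all, 534 genes were called at both times, 59.7% of those called at 36 h and 28.5% of those called at 72 h, and 264 with the pair summed. Of the 534, 318 were higher and 216 lower at both times, and 0 had opposite signs. Without FGF10 36 h replicate 4, 793 genes were called at both times and 7 of them had opposite signs. The 2 effects share no library. Their correlation across genes was 0.62 (Pearson) and 0.58 (Spearman), as a description over 17683 genes that are not independent replicates, and the Pearson value was 0.63 without FGF10 36 h replicate 4. Time alone, from 36 h to 72 h, changed 567 genes (3.21%) beside BSA beads and 451 genes (2.55%) beside FGF10 beads. The first of these counts was 18 with the BSA 72 h pair summed. Many counts of list members moved by more than 1.5 times when 1 library was left out, and the values without it are given beside them.

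**Figure D1:**
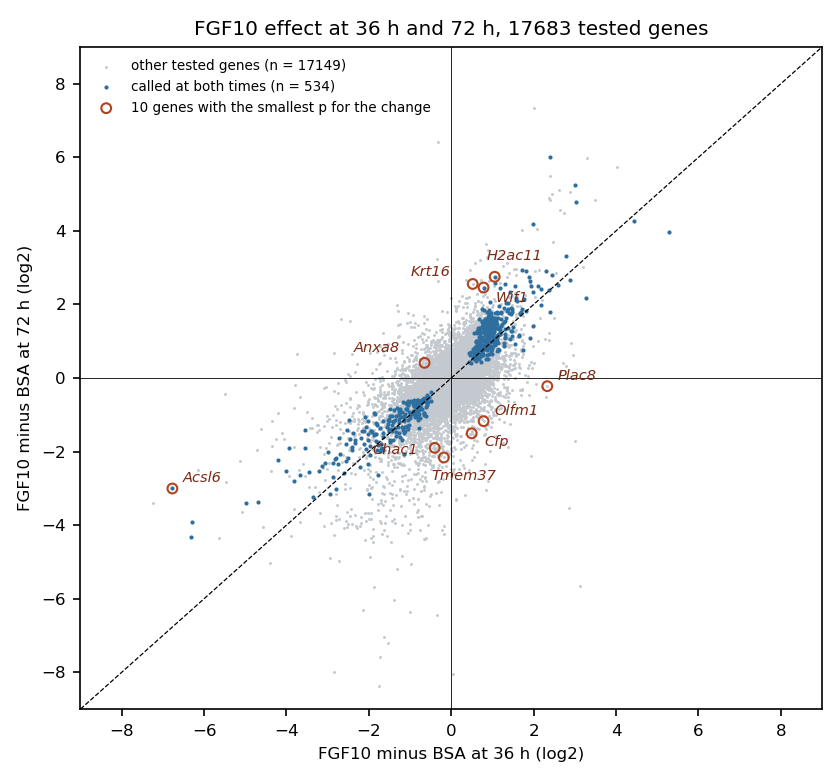
Each point is 1 of 17683 tested genes, with the FGF10 minus BSA difference (log2) at 36 h on the horizontal axis and at 72 h on the vertical axis. Blue points are the 534 genes called at both times, which all lie in the lower left or upper right quadrant, the dashed line marks equal effects, and red circles mark the protein-coding genes of at least 5 CPM with the smallest p for the change, 5 in each direction, none of which was called by edgeR without a replicate block (DESeq2 called 9 of them and limma voom 6).

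Among protein-coding genes of at least 5 CPM, those nearest to a call for a higher effect at 72 h were led by secreted and structural epithelial genes. Wif1 (chromosome 10, 120869865 to 120936555, GRCm39) encodes a secreted protein that binds and inhibits WNT ligands. Its levels were 7.81, 12.4 and 11.9 CPM with BSA and 19.8, 18.7 and 16.8 CPM with FGF10 at 36 h, then 6.85, 7.08 and 8.36 CPM with BSA and 37.6, 41.9 and 43.2 CPM with FGF10 at 72 h. The FGF10 and BSA libraries did not overlap at either time, and the FGF10 libraries at 72 h were the highest of all 12. The FGF10 effect was 0.78 ± 0.17 (SE) at 36 h and 2.46 ± 0.18 at 72 h, both called (edgeR adjusted p = 0.0218 and 3.52e-05). The call at 36 h was lost without BSA 36 h replicate 3 or FGF10 36 h replicate 1 (adjusted p of up to 0.058). The change was 1.68 ± 0.24 (95% interval 1.157 to 2.196), with an adjusted p of 0.132. It passed the threshold by DESeq2 (adjusted p = 3.17e-06), by limma voom (0.00454) and with BSA 36 h replicate 1 left out, and over all alternatives its adjusted p ran from 5.36e-07 to 0.753.

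Krt16 (chromosome 11, 100136917 to 100139728) encodes a type I keratin of stressed and stratified epithelium. Its levels were 21.3, 25.9 and 35.4 CPM with BSA and 42.5, 45.0 and 30.9 CPM with FGF10 at 36 h, where the groups overlapped. At 72 h they were 13.9, 15.8 and 10.7 CPM with BSA against 71.7, 64.6 and 101.5 CPM with FGF10, and the groups lay far apart. The effect was 0.52 ± 0.22 at 36 h (edgeR adjusted p = 0.195) and 2.56 ± 0.24 at 72 h (adjusted p = 0.000141), and the change was 2.04 ± 0.32 (adjusted p = 0.132, and 3.81e-13 to 0.523 over the alternatives). Beside BSA beads Krt16 fell by 1.03 from 36 h to 72 h (adjusted p = 0.0309), and beside FGF10 beads it rose by 1.01 (adjusted p = 0.0301). The fall beside BSA beads was not called with the BSA 72 h pair summed (adjusted p = 0.0999), nor without BSA 36 h replicate 3 or any BSA 72 h library (up to 0.143). The rise was not called without BSA 72 h replicate 2_1, FGF10 72 h replicates 2 or 4 or FGF10 36 h replicates 1 or 4 (up to 0.101). Type I keratin genes on chromosome 11 share sequence, so part of the reads of Krt14, Krt16 and Krt17 may have been assigned among them.

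H2ac11 (chromosome 13, 22226630 to 22227114) encodes a replication-dependent histone H2A, a class made in S phase. Its levels were 14.8, 15.3 and 12.2 CPM with BSA and 36.3, 21.01 and 30.7 CPM with FGF10 at 36 h, then 4.18, 3.42 and 4.06 CPM with BSA and 28.6, 21.4 and 28.7 CPM with FGF10 at 72 h. The lowest libraries were the 3 with BSA at 72 h, while both FGF10 groups covered the same range. Its effect was 1.06 ± 0.20 at 36 h and 2.75 ± 0.21 at 72 h, both called (the first not without BSA 36 h replicate 3, adjusted p = 0.0594), and the change was 1.70 ± 0.29 (edgeR adjusted p = 0.142, and 7.49e-07 to 0.909 over the alternatives). Histone genes of this cluster are near-identical copies and their transcripts lack the usual poly(A) tail, so this value is uncertain.

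Anxa8 (chromosome 14, 33807938 to 33822528), a calcium-dependent phospholipid-binding annexin, stood lower with FGF10 at 36 h and higher at 72 h. Its levels were 108.4, 82.9 and 111.8 CPM with BSA and 66.4, 65.1 and 61.9 CPM with FGF10 at 36 h. At 72 h they were 108.4, 125.5 and 100.3 CPM with BSA and 149.9, 138.8 and 156.3 CPM with FGF10. The groups did not overlap at either time and their order was reversed. The effect at 36 h passed the test (-0.65 ± 0.14, edgeR adjusted p = 0.0203, and up to 0.0967 without BSA 36 h replicate 3 or FGF10 36 h replicate 1), that at 72 h did not (0.41 ± 0.14, adjusted p = 0.0717), and the change was 1.06 ± 0.20 (adjusted p = 0.225, and 0.000433 to 0.909 over the alternatives). The last of the 5, Acsl6 (chromosome 11, 54194624 to 54255582), an acyl-CoA synthetase of long-chain fatty acids, had 2 counts in all with FGF10 at 36 h against 270 with BSA, a BSA to FGF10 ratio of 129.5 (95% counting interval 35.5 to 1075). At 72 h it had 128 counts with FGF10 against 1273 with BSA. It was lower with FGF10 at both times, and the fitted change of 3.77 ± 0.71 (edgeR adjusted p = 0.225, and 2.47e-06 to 0.636 over the alternatives) depends on so few counts at 36 h.

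Under the same limits, the genes nearest to a call for a lower effect at 72 h followed several patterns of levels. Plac8 (chromosome 5, 100701591 to 100720111), which encodes a small cysteine-rich protein, was high in FGF10 libraries at 36 h only: 4.36, 3.02 and 3.39 CPM with BSA and 13.1, 17.7 and 23.5 CPM with FGF10 at 36 h, then 5.12, 4.08 and 3.36 CPM with BSA and 3.07, 2.75 and 4.89 CPM with FGF10 at 72 h. The 3 FGF10 libraries at 36 h lay above all 9 others. Its effect of 2.33 ± 0.28 at 36 h was called (edgeR adjusted p = 0.0017), that of -0.22 ± 0.28 at 72 h was not (adjusted p = 0.688), and the change was -2.55 ± 0.40 (95% interval -3.40 to -1.70, adjusted p = 0.132, and 2.26e-09 to 0.523 over the alternatives). Olfm1 (chromosome 2, 28083004 to 28120748), a secreted olfactomedin-domain glycoprotein, had 4.66, 7.06 and 6.41 CPM with BSA and 10.1, 8.69 and 12.5 CPM with FGF10 at 36 h, then 8.58, 8.63 and 11.9 CPM with BSA and 4.44, 5.24 and 3.28 CPM with FGF10 at 72 h. The groups did not overlap at either time, with FGF10 above BSA at 36 h and below it at 72 h. The effect at 36 h did not pass (0.79 ± 0.23, edgeR adjusted p = 0.0697), that at 72 h did (-1.17 ± 0.24, adjusted p = 0.00814, and 0.0555 without FGF10 72 h replicate 4), and the change was -1.96 ± 0.34 (adjusted p = 0.142, and 8.79e-06 to 0.782 over the alternatives).

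For Cfp, Tmem37 and Chac1 the 3 libraries with BSA at 72 h were the highest of all 12 and the 3 with FGF10 at 72 h among the lowest. Cfp (chromosome X, 20791693 to 20797794) encodes properdin, a complement factor made by white blood cells. It had 4.601, 3.08 and 2.72 CPM with BSA and 4.78, 3.62 and 6.30 CPM with FGF10 at 36 h, then 7.37, 10.2 and 7.71 CPM with BSA and 3.20, 3.18 and 2.54 CPM with FGF10 at 72 h. Its effect was called at 72 h (-1.50 ± 0.27, edgeR adjusted p = 0.00367), and the change was -2.001 ± 0.38 (adjusted p = 0.225, and 0.00017 to 0.872 over the alternatives). Summed immune markers were also highest with BSA at 72 h, and their part in this value was not tested. Tmem37 (chromosome 1, 119995107 to 120001804), a membrane protein related to calcium channel gamma subunits, had 3.21, 4.21 and 4.41 CPM with BSA and 2.33, 3.68 and 4.44 CPM with FGF10 at 36 h, then 7.74, 5.70 and 8.66 CPM with BSA and 1.501, 1.98 and 1.49 CPM with FGF10 at 72 h. The groups overlapped at 36 h and not at 72 h, and the change was -1.98 ± 0.39 (edgeR adjusted p = 0.248, and 0.000964 to 0.673 over the alternatives). Chac1 (chromosome 2, 119181710 to 119184862), a glutathione-degrading enzyme induced by the unfolded protein response, had 5.27, 7.29 and 6.95 CPM with BSA and 4.72, 4.79 and 5.27 CPM with FGF10 at 36 h, then 9.83, 10.1 and 14.5 CPM with BSA and 3.46, 2.75 and 2.97 CPM with FGF10 at 72 h. Chac1 differed by 0.82 between the BSA groups (edgeR adjusted p = 0.0462), a call that was lost with the BSA 72 h pair summed (0.102) and with any library left out except FGF10 36 h replicate 4 (up to 0.218). Its change of effect was -1.50 ± 0.30 (adjusted p = 0.25, and 0.00788 to 0.782 over the alternatives).

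**Figure D2:**
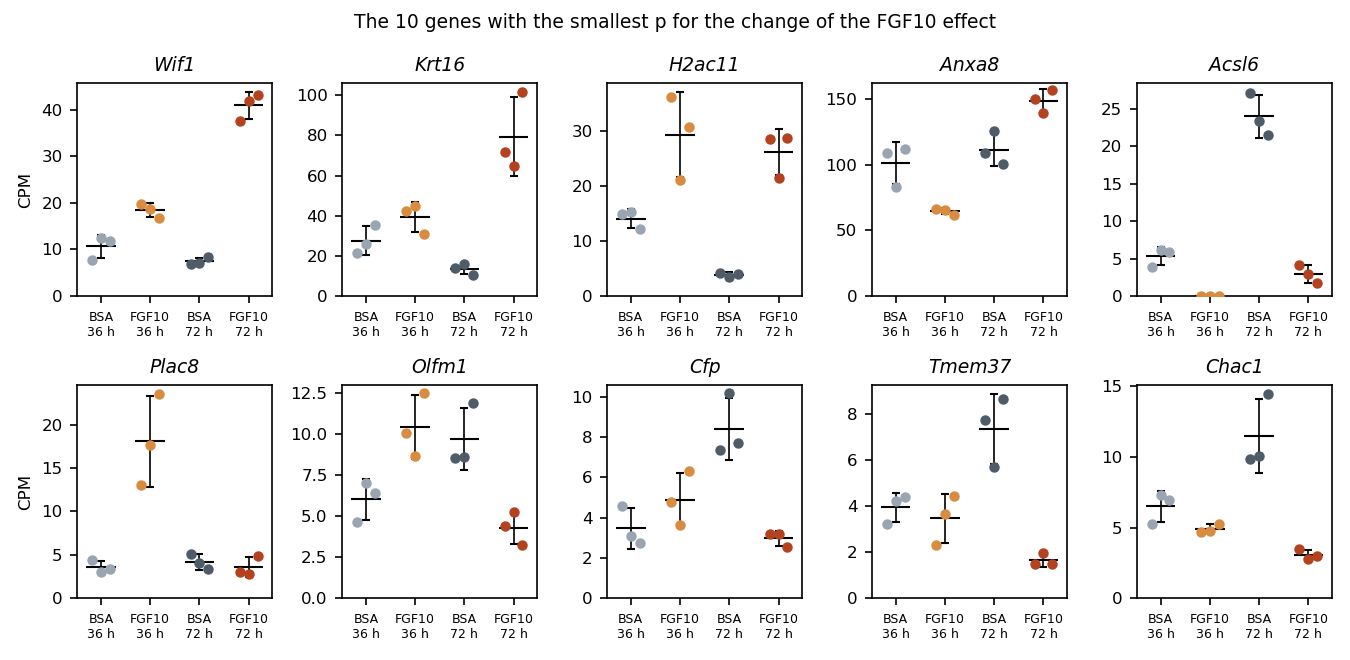
Levels (CPM, each vertical axis from 0) in the 12 libraries of the 10 protein-coding genes of at least 5 CPM with the smallest p for the change, 5 in each direction. Points are libraries, the line is the group mean and the bar 1 SD (n = 3); Plac8 is high in the 3 FGF10 libraries at 36 h (13.1 to 23.5 CPM), and Wif1 in the 3 FGF10 libraries at 72 h (37.6 to 43.2 CPM).

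Genes of mitosis held more members at an unadjusted p below 0.05 for the change than any other list in the 12-library fit. Another list held more in 3 of the 12 fits with 1 library left out: without FGF10 36 h replicate 4 (16 mitosis genes against 27 nuclear genes of oxidative phosphorylation), FGF10 72 h replicate 4 (7 against 10 genes of the basement membrane list) and BSA 36 h replicate 1 (9 against 11 inflammatory genes, these with a lower effect). The same held under limma voom (12 against 14 nuclear oxidative phosphorylation genes) and with the libraries at 0 h in the fit (0 mitosis genes). The list holds 40 genes of the spindle, kinetochore and mitotic kinases, all tested. FGF10 raised 20 of them at 36 h and 39 at 72 h, and lowered 0 at either time. Of all 17683 tested genes it raised 459 at 36 h and 1043 at 72 h, and lowered 436 and 828. The number of mitosis genes raised at 36 h was 12 with the BSA 72 h pair summed, and 12 or 13 without any 1 of the BSA 72 h libraries. It was 34, 5 and 2 when replicates 1, 2 and 3 of the BSA group at 36 h were left out in turn, and 6 when replicate 1 of the FGF10 group at 36 h was. The number at 72 h was 38 or 39 with any of the 12 libraries left out. The exception at 72 h was Pttg1, the securin that holds sister chromatids together until anaphase, with an effect of -0.24. The median effect was 0.77 at 36 h and 1.48 at 72 h, and the median change was 0.67 beside 0.02 over all tested genes. At an unadjusted p below 0.05, 22 members had a higher and 0 a lower effect at 72 h, beside 3.71% and 3.23% of all tested genes. None was called for the change by edgeR. Members of such a list move together, so their number is not a number of independent results.

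Levels of these genes differed more between the 2 times in the BSA groups than in the FGF10 groups. Summed over the list, levels were 1608 to 2422 CPM with BSA and 3011 to 3794 CPM with FGF10 at 36 h, then 949.9 to 1028 CPM with BSA and 2251 to 3348 CPM with FGF10 at 72 h. The FGF10 libraries lay above the BSA libraries at each time, and the BSA libraries at 72 h lay below all others. The same 3 libraries held the highest summed levels of adipocyte, immune and endothelial markers (526.5 to 531.8, 464.2 to 557.4 and 165.1 to 405.2 CPM), whose part in the mitosis levels was not tested. From 36 h to 72 h, 31 of 40 members fell beside BSA beads and 0 beside FGF10 beads, with median differences of -1.03 and -0.35. Of all 17683 tested genes 347 fell beside BSA beads and 131 beside FGF10 beads. The 31 became 0 with BSA 72 h replicates 2_1 and 2_2 summed or with any of the 3 BSA 72 h libraries left out, and 12 and 8 without BSA 36 h replicates 1 and 3, while 39 members were called in the FGF10 effect at 72 h in each of those fits. Without FGF10 36 h replicate 4, 16 members had a higher effect at an unadjusted p below 0.05 and the median change was 0.65. Over all libraries left out in turn this number ran from 7, without FGF10 72 h replicate 4, to 32, without BSA 36 h replicate 2, and it was 9 and 14 without BSA 36 h replicate 1 and BSA 72 h replicate 3. With the 3 libraries at 0 h in the fit it was 0, and the members called at 72 h were 1. With 0 h replicate 1 left out of that fit they were 16 and 39.

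Ccna2 encodes cyclin A2, which carries cells through S phase and into mitosis. Its mean level was 89.5 CPM with BSA and 128.3 CPM with FGF10 at 36 h, and 39.3 CPM with BSA and 122.2 CPM with FGF10 at 72 h. Its effect of 1.64 at 72 h was called (edgeR adjusted p = 0.0013) and its change was 1.12 ± 0.33 (unadjusted p = 0.00467). Kif20a, a kinesin of cytokinesis, went from 31.0 and 43.1 CPM (BSA and FGF10) at 36 h to 14.03 and 40.6 CPM at 72 h, a change of 1.06 ± 0.33. In both genes the FGF10 mean was nearly the same at the 2 times and the BSA mean was lower at 72 h. The member with the smallest p was Cdc25c, the phosphatase that activates CDK1 at mitotic entry. It had 23.4, 17.3 and 17.9 CPM with BSA and 33.3, 29.3 and 31.0 CPM with FGF10 at 36 h, then 9.62, 9.17 and 8.36 CPM with BSA and 23.3, 24.2 and 35.0 CPM with FGF10 at 72 h. The change was 0.93 ± 0.24 (edgeR adjusted p = 0.511). Mki67, the proliferation antigen Ki-67, had 60.9, 35.3 and 42.5 CPM with BSA and 78.9, 67.0 and 91.0 CPM with FGF10 at 36 h, then 23.2, 24.8 and 21.6 CPM with BSA and 56.8, 45.5 and 78.0 CPM with FGF10 at 72 h. The groups did not overlap at either time. Its effect was 0.77 ± 0.21 at 36 h (edgeR adjusted p = 0.0562) and 1.37 ± 0.22 at 72 h (adjusted p = 0.00203), and its change of 0.60 ± 0.30 has a 95% interval that includes 0 (-0.05 to 1.26).

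Many promoters of mitotic genes carry CCAAT boxes, which bind the trimeric factor NF-Y, and 3 are shown. Ube2c and Cdca3 were taken from promoters with 2 or more boxes, and Mki67 was added by name. Each sequence is the 250 bases before the RefSeq gene start on assembly GRCm38.p6, another build than that of the counts, read 5′ to 3′ on the gene's strand. Capitals mark CCAAT or its reverse complement ATTGG. A match that overlaps an earlier one, as in CCAATtgg of Ube2c, is neither marked nor counted. Ube2c, the ubiquitin-conjugating enzyme of the anaphase-promoting complex (chr2:164769679-164769928, plus strand), holds 5 such boxes, Cdca3, a trigger of mitotic entry (chr6:124829926-124830175, plus strand), holds 2, and Mki67 (chr7:135716380-135716629, minus strand) holds 3.
Ube2c: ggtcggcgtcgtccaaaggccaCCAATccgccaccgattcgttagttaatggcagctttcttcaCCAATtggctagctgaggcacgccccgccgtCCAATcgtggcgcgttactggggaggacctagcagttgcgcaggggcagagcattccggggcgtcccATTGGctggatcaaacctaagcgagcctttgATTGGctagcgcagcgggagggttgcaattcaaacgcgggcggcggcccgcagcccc
Cdca3: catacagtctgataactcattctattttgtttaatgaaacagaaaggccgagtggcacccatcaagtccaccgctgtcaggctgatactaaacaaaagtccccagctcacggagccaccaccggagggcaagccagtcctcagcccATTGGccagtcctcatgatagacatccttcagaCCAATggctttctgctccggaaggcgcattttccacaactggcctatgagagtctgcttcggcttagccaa
Mki67: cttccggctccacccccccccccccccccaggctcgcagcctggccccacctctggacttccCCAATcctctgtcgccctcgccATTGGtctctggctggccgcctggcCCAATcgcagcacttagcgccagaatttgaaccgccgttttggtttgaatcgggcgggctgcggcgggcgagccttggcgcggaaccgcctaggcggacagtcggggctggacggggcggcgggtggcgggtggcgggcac
Ube2c and Cdca3 had the smallest p among the mitosis genes open to this choice that held 2 or more boxes in the window. Not every mitosis gene was open to it: some were left out by their position in the genome, whatever their boxes, Cdc25c among them. Over the 34 mitosis genes with a promoter in the table, 26 (76.5%) held at least 1 box and 18 (52.9%) at least 2. Of all 27025 promoters 34.5% held at least 1 and 10.4% at least 2, and of the 11561 promoters of tested genes 36.4% and 13.2%. A match is a description of the letters and was not tested as a binding site. The changes of the FGF10 effect were 0.80 ± 0.27 for Ube2c and 0.79 ± 0.28 for Cdca3, and both were higher with FGF10 at both times (edgeR adjusted p = 0.00629 and 0.000205 for Ube2c, 0.0448 and 0.000687 for Cdca3).

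**Figure D3:**
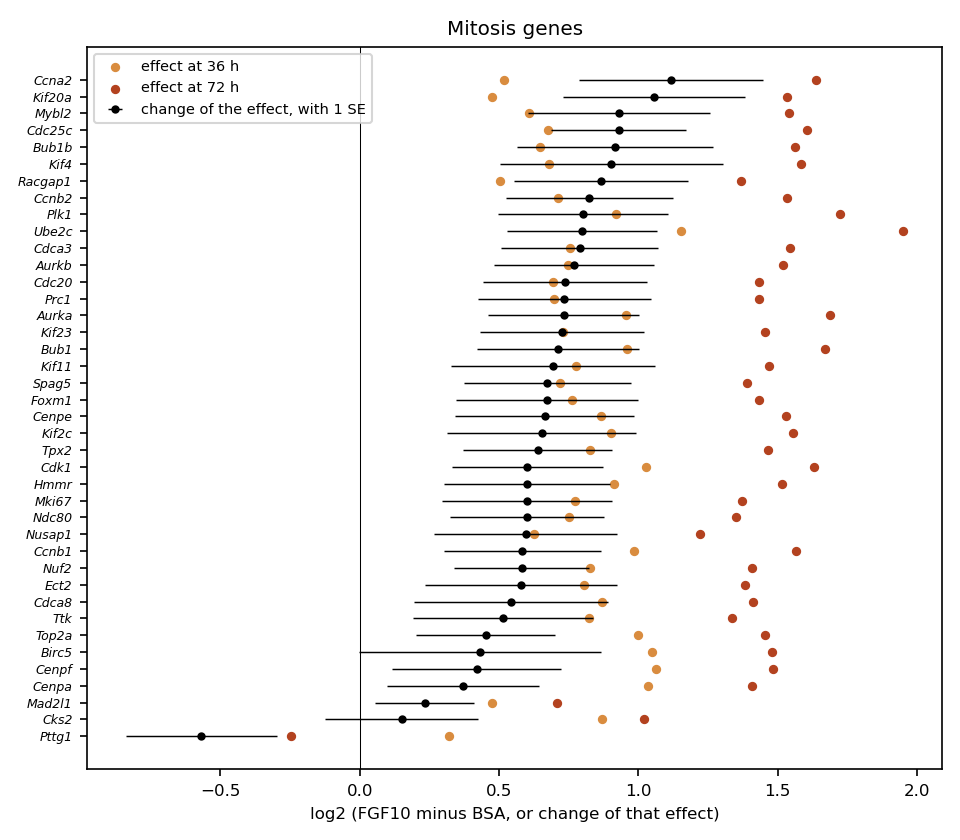
The 40 mitosis genes (rows) with their FGF10 effect at 36 h (orange) and 72 h (red) and the change of that effect with 1 SE (black), all log2. The change is above 0 for 39 of the 40, Pttg1 being the exception, and 20 members were called at 36 h and 39 at 72 h.

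DNA replication genes (40 helicase, polymerase and nucleotide synthesis genes, all tested) had a similar pattern of smaller size. FGF10 raised 14 at 36 h and 36 at 72 h and lowered 0, and 22 fell beside BSA beads from 36 h to 72 h against 0 beside FGF10 beads. With the BSA 72 h pair summed these numbers were 3, 27, 0 and 0. The 14 at 36 h ran from 1 (without BSA 36 h replicates 2 or 3 or FGF10 36 h replicate 1) to 19 with 1 library left out and was 3 to 7 when the library left out was FGF10 36 h replicate 4 or any at 72 h but FGF10 72 h replicate 4. The 36 at 72 h became 20 without FGF10 72 h replicate 4. The 22 became 0 without any BSA 72 h library, 6 and 3 without BSA 36 h replicates 1 and 3, and 35 without FGF10 36 h replicate 4. The median change was 0.40, and 8 members had a higher effect at 72 h at an unadjusted p below 0.05 and 0 a lower one, beside 3.71% and 3.23% of all tested genes. The 8 became 14 without FGF10 36 h replicate 4 or BSA 36 h replicate 2, 2 without BSA 36 h replicate 1 or FGF10 72 h replicate 4, 3 without FGF10 36 h replicate 3 or with the BSA 72 h pair summed, 4 or 5 without BSA 72 h replicates 2_1 or 2_2 or BSA 36 h replicate 3, and 0 with the libraries at 0 h in the fit. Rrm1, the large subunit of ribonucleotide reductase, had 130.7, 89.3 and 106.5 CPM with BSA and 178.9, 152.1 and 124.7 CPM with FGF10 at 36 h, where the groups overlapped. At 72 h it had 58.5, 55.8 and 59.4 CPM with BSA and 125.0, 127.6 and 177.9 CPM with FGF10, and they did not. The change was 0.83 ± 0.26 (edgeR adjusted p = 0.549). Mcm5, a subunit of the replicative helicase, went from means of 72.3 and 112.1 CPM (BSA and FGF10) to 29.9 and 85.5 CPM, a change of 0.88 ± 0.28. Between the BSA groups both were called lower at 72 h (edgeR adjusted p = 0.0201 and 0.0105). These calls were lost with the BSA 72 h pair summed (0.0991 and 0.0558) and without any BSA 72 h library, that of Rrm1 also without BSA 36 h replicates 1 or 3.

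Keratins of the basal layer had larger estimated effects at 72 h than at 36 h, although edgeR called no change. DESeq2 called those of Krt14 (adjusted p = 5.91e-05) and Krt5 (0.025), and limma voom that of Krt14 (0.0415). Krt14 had 2857, 3328 and 3260 CPM with BSA and 5052, 4505 and 4995 CPM with FGF10 at 36 h, then 3456, 3755 and 3995 CPM with BSA and 12170, 10470 and 13840 CPM with FGF10 at 72 h. The 3 FGF10 libraries at 72 h were the highest of all 12, more than 2-fold above every other library. Beside FGF10 beads Krt14 rose by 1.33 from 36 h to 72 h (edgeR adjusted p = 0.00168), while the BSA groups differed by 0.25 (adjusted p = 0.489). The change of the effect was 1.08 ± 0.25 (95% interval 0.55 to 1.61, adjusted p = 0.323). Krt5, its type II partner, had 1211, 1324 and 1319 CPM with BSA and 2112, 1907 and 1567 CPM with FGF10 at 36 h, then 1236, 1331 and 1363 CPM with BSA and 3121, 2883 and 3282 CPM with FGF10 at 72 h. It rose beside FGF10 beads (0.73, edgeR adjusted p = 0.027, but 0.0538 with the BSA 72 h pair summed and up to 0.112 without any 1 of the 6 libraries at 72 h), with a change of effect of 0.70 ± 0.23 (adjusted p = 0.584). Krt17 differed in that it was lower at 72 h than at 36 h in every BSA library (edgeR adjusted p = 0.0342, but 0.149 with the BSA 72 h pair summed and up to 0.163 without BSA 36 h replicates 1 or 3, FGF10 72 h replicate 2 or any BSA 72 h library): 1145, 1024 and 1172 CPM with BSA and 2034, 1798 and 1791 CPM with FGF10 at 36 h, then 604.8, 656.5 and 758.1 CPM with BSA and 2489, 2070 and 2827 CPM with FGF10 at 72 h. Its change was 1.12 ± 0.24 (edgeR adjusted p = 0.277), and DESeq2, limma voom and the fit with a replicate block called it.

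Not all basal genes moved with the keratins. Of the 29 basal and myoepithelial markers, 4 had a higher effect at 72 h (Krt17, Krt14, Lgr5, Krt5) and 3 a lower effect (Cnn1, Myh11, Mylk) at an unadjusted p below 0.05, and the median change was -0.06. The shares of all tested genes were 3.71% higher and 3.23% lower. The numbers of these markers were 7 without FGF10 72 h replicate 4 for the higher effect and 5 without FGF10 36 h replicate 3 for the lower effect. The 3 that were lower encode contractile proteins. Cnn1 (calponin) had mean levels of 123.6 CPM with BSA and 155.6 CPM with FGF10 at 36 h, and 253.1 CPM with BSA and 117.1 CPM with FGF10 at 72 h, a change of -1.44 ± 0.39. Myh11, smooth muscle myosin heavy chain, had 72.4, 53.8 and 56.3 CPM with BSA and 66.02, 55.7 and 72.3 CPM with FGF10 at 36 h, then 67.0, 77.9 and 111.9 CPM with BSA and 45.8, 55.6 and 43.0 CPM with FGF10 at 72 h. Its groups overlapped at 36 h and not at 72 h, and the change was -0.92 ± 0.27 (edgeR adjusted p = 0.534). Vascular smooth muscle uses the same genes. The 10 pericyte and vascular smooth muscle markers, which include Myh11, added up to 158.9 to 236.8 CPM in the BSA group at 72 h against 104.2 to 123.8 CPM in the other 3 groups, and their part in these values was not tested. Trp63, the transcription factor that defines basal cells, had an effect of 0.52 ± 0.16 at 36 h (edgeR adjusted p = 0.0828) and 0.16 ± 0.16 at 72 h (adjusted p = 0.597).

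Among the luminal keratins Krt8 and Krt18 no effect was called at either time. Krt8 had 2534, 4623 and 3775 CPM with BSA and 3419, 4542 and 3621 CPM with FGF10 at 36 h, then 2309, 2520 and 2437 CPM with BSA and 3234, 3416 and 3913 CPM with FGF10 at 72 h, with a change of 0.46 ± 0.30. Krt18 ranged from 3814 to 9293 CPM at 36 h and from 4499 to 4912 CPM at 72 h, and its change of -0.04 ± 0.41 has a 95% interval of -0.92 to 0.84.

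Of the 29 squamous and cornified envelope genes 20 were tested, and 4 had a higher effect at 72 h at an unadjusted p below 0.05 (Krt16, Dsg3, Krt6b and Dsc1) and 0 a lower one, beside 3.71% and 3.23% of all tested genes. The 4 became 2 without FGF10 36 h replicate 4, FGF10 72 h replicate 4 or BSA 72 h replicate 2_2 and with the BSA 72 h pair summed, and 7 without BSA 36 h replicate 1. Dsg3, a desmosomal cadherin of stratified epithelium, had mean levels of 9.69 CPM with BSA and 24.3 CPM with FGF10 at 36 h and of 9.75 CPM with BSA and 40.3 CPM with FGF10 at 72 h. Its effect was called at both times (1.33 and 2.05, edgeR adjusted p = 0.00433 and 0.000186) and the change was 0.72 ± 0.28. The envelope precursor Ivl had a change of the same sign, but unlike Krt16 and Dsg3 its mean was lower with FGF10 than with BSA at both times. Its mean was 150.8 CPM with BSA and 5.67 CPM with FGF10 at 36 h (called, -4.71, edgeR adjusted p = 0.0338, but 0.0515 with the BSA 72 h pair summed and up to 0.0983 without BSA 36 h replicates 2 or 3, BSA 72 h replicates 2_1 or 2_2 or FGF10 36 h replicates 1 or 4), and 396.2 CPM with BSA and 102.9 CPM with FGF10 at 72 h, with a wide SE on its change (2.76 ± 1.27). The list's median effects were -0.09 and -0.25 although its median change was 0.66, since the median gene differs between them.

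Among genes of the basement membrane and of adhesion to it, members with a small p for the change had a lower effect at 72 h. Of 35 members, all tested, FGF10 raised 9 at 36 h and 6 at 72 h and lowered 0 and 3. The 9 became 5 without BSA 36 h replicates 2 or 3, and the 6 became 2 with the BSA 72 h pair summed and without any BSA 72 h library or FGF10 72 h replicates 3 or 4. At an unadjusted p below 0.05, 9 had a lower and 0 a higher effect at 72 h, or 11 and 1 without FGF10 36 h replicate 4, and the median change was -0.27. Over all tested genes 3.23% had a lower and 3.71% a higher effect at that p. FGF10 raised 459 of these 17683 genes at 36 h and 1043 at 72 h, and lowered 436 and 828. The 2 chains of the main collagen IV network led the list. Col4a2 had 18.8, 15.3 and 10.6 CPM with BSA and 15.3, 12.7 and 23.3 CPM with FGF10 at 36 h, where the groups overlapped. At 72 h it had 24, 23.9 and 23.6 CPM with BSA and 11.6, 11 and 9.22 CPM with FGF10, and they did not. Its effect at 72 h was called (-1.17 ± 0.23, edgeR adjusted p = 0.00698) and the change was -1.36 ± 0.33 (edgeR adjusted p = 0.358, but 0.0495 by limma voom). Col4a1 went from means of 20.2 and 22.2 CPM (BSA and FGF10) to 31.5 and 14.5 CPM, a change of -1.25 ± 0.31. Endothelial and fibroblast cells also make collagen IV, and the markers of both were highest with BSA at 72 h (fibroblast markers 1305 to 1627 CPM there against 412.5 to 969.4 CPM elsewhere); their part was not tested.

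A second pattern within the list was a rise with FGF10 at 36 h that was smaller at 72 h. Fermt1, kindlin-1, an integrin activator of epithelial cells, had mean levels of 121.7 CPM with BSA and 299.1 CPM with FGF10 at 36 h, and 124.2 CPM with BSA and 154.9 CPM with FGF10 at 72 h. The effect at 36 h was called (1.30, edgeR adjusted p = 0.00628), that at 72 h was 0.32 (adjusted p = 0.379), and Fermt1 fell by 0.95 beside FGF10 beads (adjusted p = 0.0313, but 0.0517 with the BSA 72 h pair summed and up to 0.162 without BSA 72 h replicate 2_2, FGF10 36 h replicates 3 or 4 or any FGF10 72 h library). Itga2, the alpha-2 subunit of a collagen receptor, had means of 14.1 and 28.2 CPM at 36 h and 17.8 and 20.4 CPM at 72 h, with a called effect at 36 h only (1.00, edgeR adjusted p = 0.00359). The changes were -0.98 ± 0.30 for Fermt1 and -0.80 ± 0.20 for Itga2, and edgeR called neither.

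Immediate early genes, which cells induce within minutes of a stimulus or of handling, had 6 of 17 tested members with a lower effect at 72 h at an unadjusted p below 0.05 (Klf6, Dusp1, Atf3, Nr4a2, Junb and Klf2) and 0 with a higher one. The 6 became 9 without FGF10 36 h replicate 4, 2 without FGF10 36 h replicate 3, 3 without FGF10 72 h replicates 3 or 4 or BSA 72 h replicate 2_1, and 1 with the libraries at 0 h in the fit, beside 3.23% of all tested genes in the 12-library fit. Klf6, a zinc-finger transcription factor, had 98.7, 125.3 and 118.6 CPM with BSA and 123.7, 177.1 and 189.6 CPM with FGF10 at 36 h, then 139.7, 136.0 and 145.3 CPM with BSA and 109.5, 112.4 and 113.7 CPM with FGF10 at 72 h. At 72 h the FGF10 libraries all lay below the BSA libraries, and at 36 h the groups overlapped by 1 library. The change was -0.84 ± 0.22 (edgeR adjusted p = 0.51). Dusp1, a phosphatase of MAP kinases, had means of 25.4 and 27.0 CPM (BSA and FGF10) at 36 h and 28.3 and 17.5 CPM at 72 h, with a called effect at 72 h (-0.69, edgeR adjusted p = 0.0296, but 0.0729 with the BSA 72 h pair summed and up to 0.133 with any 1 of the 6 libraries at 72 h left out) and a change of -0.78 ± 0.26. FGF10 raised 0 of the 17 at either time and lowered 0 at 36 h and 2 at 72 h, and the 2 became 0 with the BSA 72 h pair summed or without any 1 of the 6 libraries at 72 h, and 5 and 4 without FGF10 36 h replicates 3 and 4. In the 12-library fit it lowered 436 of all 17683 tested genes at 36 h and 828 at 72 h, and raised 459 and 1043.

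The direct readouts of FGF-ERK signalling had no clear change of effect. Of 22 target genes FGF10 raised 4 at 36 h and 5 at 72 h and lowered 0, the median effect was 0.36 and 0.35, and 1 member had an unadjusted p below 0.05 for the change (3 without FGF10 36 h replicate 4, 0 without FGF10 36 h replicate 3 or FGF10 72 h replicate 2). The 4 became 2 without BSA 36 h replicates 2 or 3, and the 5 became 8 without FGF10 36 h replicate 4. In the 12-library fit 6.94% of all 17683 tested genes had an unadjusted p below 0.05 for the change. FGF10 raised 459 of them all at 36 h and 1043 at 72 h, and lowered 436 and 828. Etv4 had 3.63, 3.53 and 3.21 CPM with BSA and 11.5, 12.98 and 5.98 CPM with FGF10 at 36 h, then 1.26, 1.74 and 1.00 CPM with BSA and 5.09, 7.65 and 9.91 CPM with FGF10 at 72 h. The BSA groups differed by -1.37 (edgeR adjusted p = 0.0471, but 0.118 with the BSA 72 h pair summed and up to 0.195 with 1 library left out, and called in only 4 of those 12 fits). Its effect was 1.55 ± 0.31 at 36 h and 2.50 ± 0.34 at 72 h, and the change of 0.95 ± 0.46 was not called (95% interval -0.03 to 1.93). Etv5 had 13.5, 17.4 and 13.7 CPM with BSA and 31.3, 21.01 and 30.4 CPM with FGF10 at 36 h, then 13.5, 11.4 and 9.48 CPM with BSA and 20.7, 23.8 and 30.9 CPM with FGF10 at 72 h. The effects were 0.89 ± 0.20 and 1.13 ± 0.20, both called, and their difference was 0.24 ± 0.28. The calls at 36 h were lost without BSA 36 h replicate 3 and, for Etv4, BSA 36 h replicate 2 or, for Etv5, FGF10 36 h replicate 1 (adjusted p of up to 0.0703 and 0.108). Dusp6, the phosphatase that switches off ERK, had 26.6, 25.0 and 31.3 CPM with BSA and 73.8, 70.2 and 37.4 CPM with FGF10 at 36 h, then 25.3, 21.9 and 24.1 CPM with BSA and 39.3, 40.7 and 57.3 CPM with FGF10 at 72 h. FGF10 36 h replicate 4 was the lowest of its group in Etv4 and Dusp6. The effects of 1.13 ± 0.23 and 0.95 ± 0.23 on Dusp6 were called at both times, that at 36 h not without BSA 36 h replicate 2 (adjusted p = 0.0569) and that at 72 h not with the BSA 72 h pair summed (0.0623) or without any BSA 72 h library or FGF10 72 h replicate 4 (up to 0.104), and the interval of their difference ran from -0.87 to 0.50.

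Spry4, a Sprouty inhibitor, was the member with the smallest p. It had 1.09, 1.42 and 1.57 CPM with BSA and 2.46, 2.90 and 2.38 CPM with FGF10 at 36 h, then 1.46, 1.32 and 1.88 CPM with BSA and 1.18, 1.63 and 1.73 CPM with FGF10 at 72 h. The groups were apart at 36 h and overlapped at 72 h, and the change was -0.96 ± 0.40 (edgeR adjusted p = 0.69). The receptor Fgfr2 had 78.9, 69.9 and 68.9 CPM with BSA and 87.5, 91.0 and 53.3 CPM with FGF10 at 36 h, then 71.5, 76.6 and 79.3 CPM with BSA and 57.2, 76.4 and 58.6 CPM with FGF10 at 72 h, with no called effect and a change of -0.33 ± 0.26. Among the 16 tested receptors, ligands and binding proteoglycans Flrt3, a transmembrane protein that binds FGF receptors, had the smallest p. It had 8.96, 7.57 and 8.59 CPM with BSA and 18.3, 19.6 and 17.2 CPM with FGF10 at 36 h, then 12.5, 11.03 and 10.4 CPM with BSA and 13.3, 12.8 and 15.2 CPM with FGF10 at 72 h. Its effect at 36 h was called (1.13 ± 0.14, edgeR adjusted p = 0.0017), and the change was -0.85 ± 0.20 (edgeR adjusted p = 0.358, but 0.042 by DESeq2).

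In epithelial-mesenchymal transition (EMT) epithelial cells give up junctions and turn on mesenchymal genes. Of 31 tested mesenchymal and matrix genes FGF10 raised 5 at 36 h and 6 at 72 h, and the same 5 (Axl, Cdh2, Pdpn, Timp1 and Tnc) were raised at both times. It lowered 1 and 4 of the 31, and the median effects were 0.07 and -0.41. Of 25 partial EMT genes it raised 6 and 9, 5 of them at both times, and of 14 EMT transcription factors only Tead1, at both times. It lowered 0 at 36 h and 1 at 72 h in each of these last lists. Over all 17683 tested genes FGF10 raised 459 and lowered 436 at 36 h, and raised 1043 and lowered 828 at 72 h. Tnc, the matrix protein tenascin-C, had 8.17, 10.99 and 17.4 CPM with BSA and 43.3, 69.9 and 52.5 CPM with FGF10 at 36 h, then 14.1, 10.9 and 10.3 CPM with BSA and 36.7, 71.1 and 79.6 CPM with FGF10 at 72 h. Pdpn, the membrane mucin podoplanin, had 11.2, 7.92 and 5.56 CPM with BSA and 33.9, 26.5 and 23.0 CPM with FGF10 at 36 h, then 4.39, 3.66 and 4.65 CPM with BSA and 18.01, 18.2 and 20.7 CPM with FGF10 at 72 h. Cdh2, N-cadherin, had 2.18, 1.37 and 0.786 CPM with BSA and 8.10, 6.02 and 4.63 CPM with FGF10 at 36 h, then 1.15, 0.899 and 1.77 CPM with BSA and 6.66, 5.76 and 9.10 CPM with FGF10 at 72 h. In these 3 genes the FGF10 and BSA libraries did not overlap at either time. The changes were 0.23 ± 0.44 for Tnc, 0.40 ± 0.32 for Pdpn and 0.39 ± 0.51 for Cdh2, with unadjusted 95% intervals of -0.73 to 1.18, -0.28 to 1.09 and -0.71 to 1.49. Each interval includes 0, so the data do not tell these changes from none. The sign of the estimate for Cdh2 and Tnc turned when 1 library was left out, and that for Pdpn and Cdh2 under limma voom.

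E-cadherin (Cdh1) and Epcam, which hold epithelial cells together, had changes close to 0. Cdh1 had 229.2, 197.1 and 238.8 CPM with BSA and 312.0, 349.8 and 198.1 CPM with FGF10 at 36 h, then 206.9, 217.6 and 213.9 CPM with BSA and 235.0, 272.9 and 322.2 CPM with FGF10 at 72 h. Its effects were 0.37 ± 0.19 and 0.38 ± 0.19, neither called, and their difference was 0.01 ± 0.27 (95% interval -0.58 to 0.59). Epcam ranged from 1764 to 2846 CPM at 36 h and from 1508 to 2098 CPM at 72 h, and its change was 0.09 ± 0.26. Of 40 epithelial junction genes 1 had a higher and 1 a lower effect at an unadjusted p below 0.05, beside 3.71% and 3.23% of all tested genes.

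Of 14 tested EMT transcription factors, Zeb2 had the smallest p. It had 1.33, 2.90 and 1.21 CPM with BSA and 1.13, 0.724 and 0.900 CPM with FGF10 at 36 h, then 5.59, 4.44 and 8.66 CPM with BSA and 0.587, 0.344 and 0.248 CPM with FGF10 at 72 h. The 3 BSA libraries at 72 h were the highest and the 3 FGF10 libraries at 72 h the lowest of all 12. The effect at 72 h was called (-3.96 ± 0.46, edgeR adjusted p = 0.000344) and the change was -2.96 ± 0.63 (edgeR adjusted p = 0.277, but 0.0137 by DESeq2). Zeb2 is also expressed in white blood and endothelial cells, whose markers were highest with BSA at 72 h, and their part was not tested. Zeb1 ranged from 0.12 to 1.41 CPM except in BSA 72 h replicate 3 (6.12 CPM), and Snai1 from 0.39 to 2.11 CPM. Their changes had SEs of 1.24 and 0.83, which says little about either. Snai2 ranged from 53.4 to 91.8 CPM over the 12 libraries, with a change of -0.05 ± 0.24. Vim (vimentin), with 32.6, 83.9 and 40.8 CPM with BSA and 81.0, 71.1 and 129.3 CPM with FGF10 at 36 h, then 117.8, 121.7 and 236.8 CPM with BSA and 114.3, 116.2 and 112.5 CPM with FGF10 at 72 h, overlapped between groups at 36 h. Its change was -1.31 ± 0.51 (edgeR adjusted p = 0.679). Of 31 tested mesenchymal and matrix genes, 5 had a lower and 0 a higher effect at an unadjusted p below 0.05 (8 when BSA 36 h replicate 2 was left out, and 3 when it was BSA 36 h replicate 3, BSA 72 h replicate 3 or replicate 4 of either FGF10 group), led by the fibrillar collagen Col5a1 (-1.32 ± 0.35). The shares of all tested genes were 3.23% lower and 3.71% higher in the 12-library fit.

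Of all lists, adipocyte, endothelial, immune and fibroblast markers had the largest negative median changes. Pericyte, red blood cell and Schwann markers had medians of -0.21, -0.20 and 0.18. The median change was -1.61 over 12 tested adipocyte markers, -1.39 over 18 endothelial markers, -1.29 over 14 immune markers and -0.41 over 16 fibroblast markers. At an unadjusted p below 0.05, 4, 2, 5 and 2 members had a lower effect at 72 h and 0, 0, 0 and 1 a higher one, beside 3.23% and 3.71% of all tested genes. Without FGF10 36 h replicate 4 the medians were -1.70 (adipocyte), -0.73 (endothelial), -0.72 (immune) and 0.02 (fibroblast), and 3, 1 and 1 adipocyte, endothelial and immune members had a lower effect at that p. With 1 library left out these 3 numbers ran from 3 to 9, 0 to 6 and 1 to 10, and most of the endothelial and immune values lay more than 1.5 times from those above. At 72 h FGF10 lowered 8 adipocyte, 8 endothelial and 10 immune markers and raised 0, beside 828 lowered and 1043 raised of all 17683 tested genes. At 36 h it lowered 1, 0 and 1 of these markers, beside 436 of all tested genes. With the BSA 72 h pair summed the 3 marker counts at 72 h were 4, 6 and 7. With 1 library left out they ran from 3 to 11, 2 to 15 and 4 to 13, each lowest without FGF10 72 h replicate 4 (shared with BSA 72 h replicate 2_2 for adipocyte and FGF10 72 h replicate 3 for immune markers). Of the fibroblast markers FGF10 lowered 5 and raised 2 at 72 h, and lowered 2 and raised 3 at 36 h. These fibroblast counts are given for the 12-library fit only. The single genes were variable: Lyz2, lysozyme of macrophages, had 67.6, 49.8 and 87.1 CPM with BSA and 57.2, 27.6 and 110.0 CPM with FGF10 at 36 h, then 256.2, 269.8 and 217.6 CPM with BSA and 91.0, 81.9 and 52.99 CPM with FGF10 at 72 h. Lpl, the lipoprotein lipase of adipocytes, had mean levels of 28.3, 14.2, 106.1 and 15.9 CPM in the same order of groups. For both, BSA at 72 h was the highest group, and the difference between the BSA groups was called (edgeR adjusted p = 0.0352 for Lyz2 and 0.019 for Lpl). Both calls were lost with the BSA 72 h pair summed (0.112 and 0.074) and without any BSA 72 h library or BSA 36 h replicate 3, that of Lyz2 also without BSA 36 h replicates 1 or 2 or FGF10 72 h replicate 3. In bulk RNA fewer cells of a type and less RNA per cell cannot be told apart. Cfd (adipsin) was the adipocyte marker with the smallest p, but it had 1 count in all with FGF10 at 72 h against 81 with BSA (BSA to FGF10 ratio 66.2, 95% counting interval 11.5 to 2645), and FGF10 36 h replicate 1 held all of its counts in that group.

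**Figure D4:**
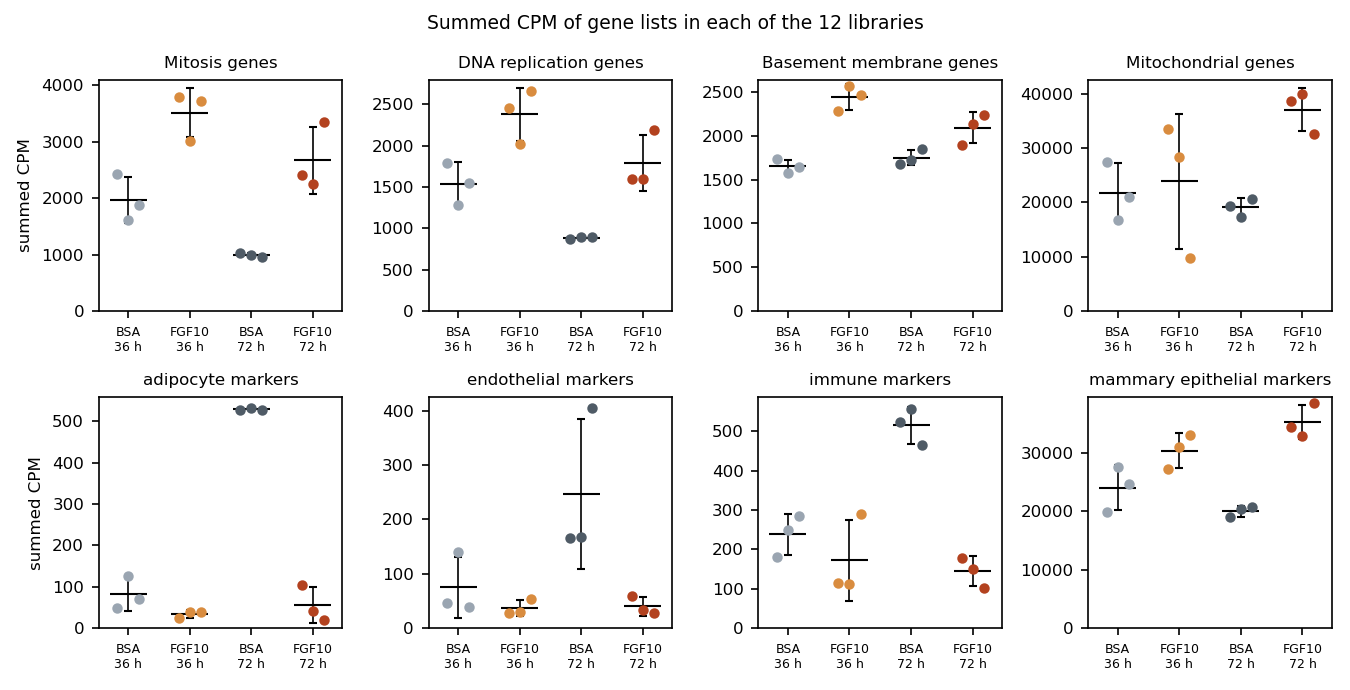
Summed levels (CPM, vertical axes from 0) of 8 gene lists in the 12 libraries, with group means (lines) and 1 SD (bars, n = 3). Mitosis genes are lowest with BSA at 72 h (949.9 to 1028 CPM) while adipocyte markers are highest there (526.5 to 531.8 CPM), and FGF10 36 h replicate 4 is the low point of the mitochondrial genes (9810 CPM).

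Metabolic lists differed in how far 1 library carried them. Of 24 cholesterol synthesis and uptake genes FGF10 raised 11 at 36 h and 14 at 72 h and lowered 0, and the median change was 0.14. Of all 17683 tested genes it raised 459 at 36 h and 1043 at 72 h, and lowered 436 and 828. The 11 became 6 with the BSA 72 h pair summed, 4 without replicate 3 of BSA at 36 h, 5 without replicate 1 of FGF10 at 36 h, and 6 or 7 without any BSA 72 h library or FGF10 72 h replicate 3. Msmo1, a sterol methyl oxidase, had 83.8, 108.0 and 88.8 CPM with BSA and 225.7, 180.4 and 198.6 CPM with FGF10 at 36 h, then 115.8, 105.4 and 108.3 CPM with BSA and 166.2, 177.5 and 208.0 CPM with FGF10 at 72 h. The groups did not overlap at either time, and the change was -0.36 ± 0.20. All 13 mitochondrially encoded genes had an estimated change above 0, with a median change of 0.90 that was 0.56 without FGF10 36 h replicate 4, and 1 had an unadjusted p below 0.05 (7 without that library). mt-Co3 had 1147, 897.3 and 718.7 CPM with BSA and 1166, 1004 and 159.1 CPM with FGF10 at 36 h, where the last value is that library. At 72 h it had 521.8, 587.5 and 691.5 CPM with BSA and 1452, 1717 and 1728 CPM with FGF10, and the groups did not overlap. Of 35 nuclear genes of oxidative phosphorylation 4 had a higher effect at 72 h at an unadjusted p below 0.05 and 0 a lower one (3.71% and 3.23% of all tested genes), with a median change of 0.20. Without FGF10 36 h replicate 4 these were 27, 0 and 0.45, and the 4 became 2 with the BSA 72 h pair summed and in 6 other fits with 1 library left out. Atp5b, the catalytic subunit of ATP synthase, led them: 2925, 3377 and 2998 CPM with BSA and 3354, 3130 and 2629 CPM with FGF10 at 36 h, then 1952, 2080 and 2211 CPM with BSA and 3290, 3412 and 3569 CPM with FGF10 at 72 h. The groups overlapped at 36 h and not at 72 h, and the effect at 72 h was called (0.72 ± 0.16, edgeR adjusted p = 0.0128). That adjusted p became 0.0623 with the BSA 72 h pair summed and up to 0.0683 without BSA 72 h replicates 2_1 or 2_2 or FGF10 72 h replicate 4. The change was 0.75 ± 0.23 (edgeR adjusted p = 0.538, but 0.00497 by DESeq2).

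**Figure D5:**
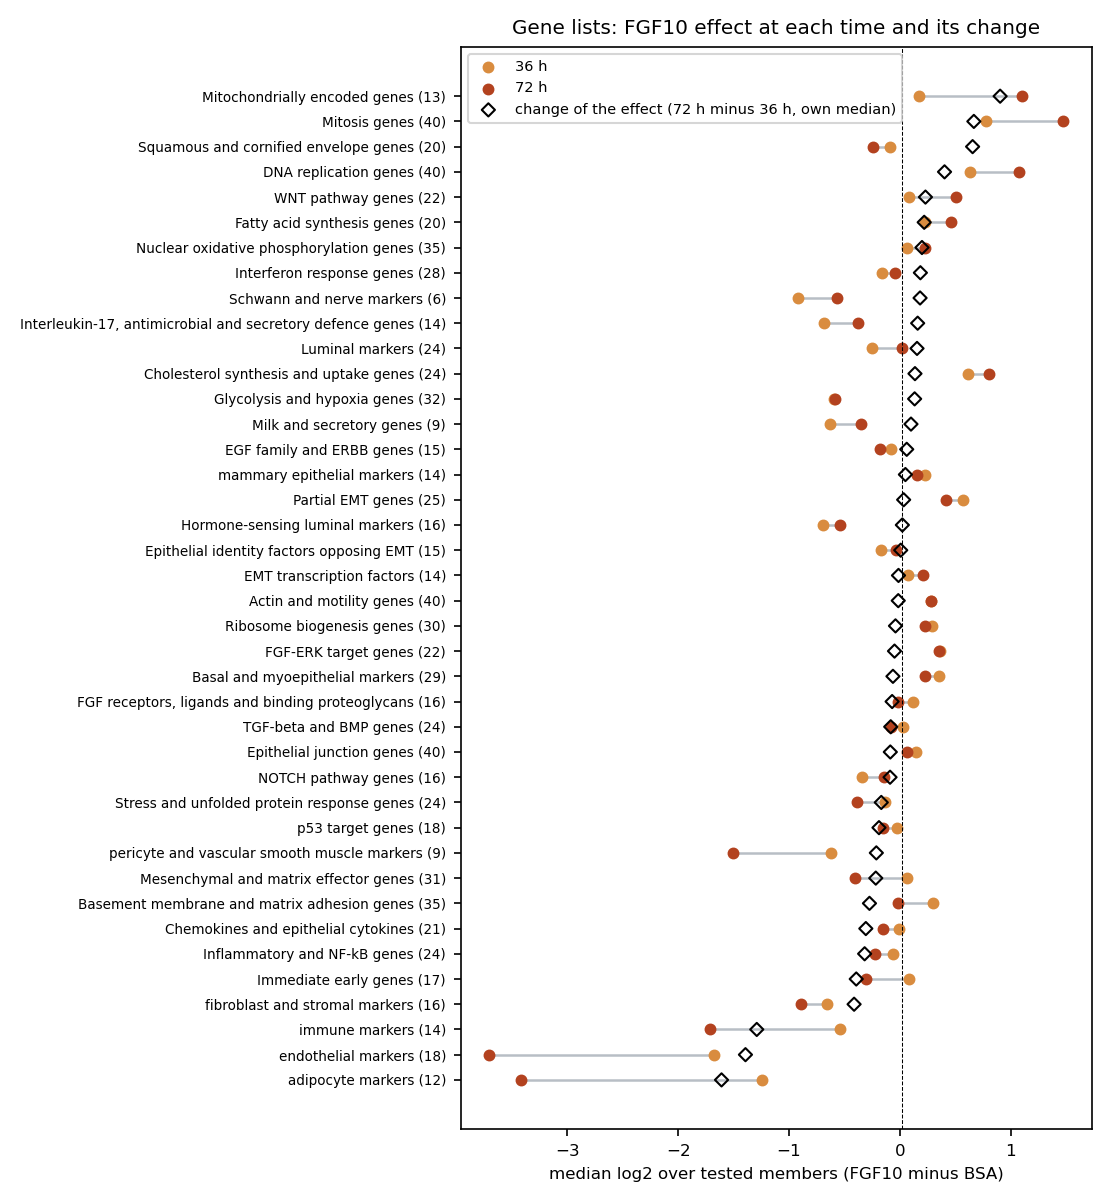
Median FGF10 effect (log2) at 36 h (orange) and 72 h (red) over the tested members of each gene list with at least 5 of them, and the median of the members' changes (open diamonds), with the number of tested members in brackets. The dashed line is the median change over all tested genes (0.02); mitosis genes (0.67) and DNA replication genes (0.40) lie to its right and adipocyte, endothelial and immune markers (-1.61, -1.39 and -1.29) to its left.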

How the data were processed

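RNA was measured by paired-end mRNA sequencing of 12 libraries in 4 groups of 3, all used. Per the submitters' processing notes and the file header, reads were trimmed with cutadapt 1.9.1, aligned to GRCm39 with HISAT2 2.2.1 and counted over exons with featureCounts 2.0.1. The notes also list HTSeq, FastQC and DESeq2. The deposited values are raw fragment counts per gene name. The header shows no strand setting, so antisense and overlapping genes cannot be told apart, and near-identical copies (keratins, histones) are uncertain. No column was left out for lack of a label.

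From these counts, edgeR 4.0.16 (R 4.3.3) fitted 1 mean per group by its robust quasi-likelihood method with TMM scaling. The filter needed a count of 10 in the smallest group, at a total of 15. P-values were adjusted by Benjamini-Hochberg over all 17683 tested genes, and genes at an adjusted p below 0.05 were called. The SE is the log2 difference divided by the root of F, and intervals are at 95%. Intervals on counts and the floor of 3 counts cover counting error only. The fit holds the 4 groups of the contrast, because in an earlier analysis 1 library at 0 h moved call counts through the shared spread. Tests were checked on simulated data. Alternatives used limma 3.58.1 and DESeq2 1.42.0.

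The comparison, the 41 gene lists and the tests were chosen with earlier results of these data known. Named genes are the 5 protein-coding genes with the smallest p in each direction with a mean of at least 5 CPM, 22 panel genes and the member of each list with the smallest p. The values of some genes that this rule names are not reported here. Other genes (Pttg1, Ccna2, Kif20a, Ube2c, Cdca3, Mcm5, Cnn1, Dsg3, Ivl, Col4a1, Fermt1, Itga2, Dusp1, Lpl, Axl, Timp1, Tead1) were chosen after their values were seen. Promoters are from RefSeq (GRCm38.p6). The 4 fits of a single time or a single bead share libraries with the change of effect and are given as its parts.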

Additional observations from a re-analysis of the deposited data

How the results depend on the processing

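The count of genes called for the change of the FGF10 effect (0) was also 0 with DESeq2 size factors, with a minimum of 10 counts in 3 libraries, with all 5 groups fitted, with 0 h replicate 1 left out of that fit, and with the BSA 72 h pair summed. It was 316 with no filter on low counts (310 of these genes pass the filter), 17 with limma voom, 49 with DESeq2, and 0 to 3 with 1 library left out (3 when that was BSA 36 h replicate 1, 1 when it was replicate 1 of the 36 h FGF10 group). The cause of these differences was not tested.

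In the order FGF10 effect at 36 h (895), at 72 h (1871), time with BSA (567), time with FGF10 (451), called at both times (534) and called at both with opposite sign (0), the counts were 2063, 2887, 1587, 1592, 1306 and 14 with no filter, 1823, 4891, 2948, 1025, 1253 and 7 with limma voom, and 1668, 2605, 1194, 1028, 929 and 3 with DESeq2. With all 5 groups the first 3 and the fifth were 425, 1087, 85 and 229, and with the BSA 72 h pair summed 523, 991, 18 and 264. With 1 library left out they ran from 239 to 1366, 657 to 3212, 17 to 1687, 174 to 655, 174 to 793 and 0 to 7. The lowest came without BSA 36 h replicate 3, FGF10 72 h replicate 4, BSA 72 h replicate 3, FGF10 72 h replicate 2 and BSA 36 h replicate 3, and the highest without FGF10 36 h replicate 4, except 655 (BSA 36 h replicate 1). Leaving out BSA 36 h replicate 2 or FGF10 36 h replicate 1 gave 371 and 430 at 36 h, and leaving out BSA 72 h replicates 2_1, 2_2 or 3 or FGF10 72 h replicate 2 gave 517 to 595 there. Leaving out BSA 72 h replicates 2_1, 2_2 or 3 or FGF10 72 h replicate 3 gave 1000, 906, 913 and 1223 at 72 h. Leaving out BSA 72 h replicates 2_1 or 2_2 or BSA 36 h replicates 1 or 3 gave 22, 19, 369 and 112 for time with BSA, and leaving out FGF10 72 h replicate 3 gave 185 for time with FGF10. The correlation of the effects was 0.17 with no filter and 0.44 to 0.63 with 1 library left out.

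Replicate numbers were not taken as pairs, since no label says so and not every same-numbered pair correlated above 0.1. Deviations of the 13 same-numbered pairs correlated at -0.08 to 0.46 (median 0.04), 5 of them above 0.1, among them both pairs at 36 h (0.46 and 0.30). Replicate 1 of both 36 h groups also stood apart in the summed inflammatory genes (10760 CPM with BSA and 7350 CPM with FGF10, against 1245 to 2233 CPM in the other 10 libraries), so a shared source at 36 h was not settled. With a replicate block in the same edgeR test the counts were 67 for the change, 1381 at 36 h, 2401 at 72 h, 1395 for time with BSA, 1678 with FGF10, 833 at both times and 7 with opposite sign.

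Signs of small estimates turned. Under limma voom the changes of Pdpn (-0.0010), Cdh2 (-0.20), Epcam (-0.12), Krt18 (0.34) and Cdh1 (-0.14) and the 36 h effect of Krt18 (-0.28) reversed. With 1 library left out the changes ran from -0.025 to 0.69 for Cdh2, -0.12 to 0.50 for Tnc, -0.072 to 0.26 for Epcam, -0.19 to 0.20 for Snai2, -0.29 to 0.30 for Krt18 and -0.20 to 0.18 for Cdh1. The 36 h effects ran from -0.39 to 0.044 for Tmem37, -0.12 to 0.29 for Krt8, -1.27 to 0.18 for Snai1, -0.043 to 0.30 for Fgfr2, -1.28 to 0.13 for Zeb1 and -0.24 to 0.35 for Krt18, and the 72 h effect of Spry4 from -0.16 to 0.12.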

Other observations

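By each of DESeq2, limma voom and the fit with a replicate block, 10 genes were called for the change of the FGF10 effect. The block fit also used edgeR's quasi-likelihood test, and it called 67 genes. Without the block that test called 0 and gave 1228 at an unadjusted p below 0.05. The 10 genes were Wif1, Krt17, Anxa8, Trim29, Kcns3, Rps2-ps10 and Gm45855, with a higher effect at 72 h, and Plac8, Olfm1 and Cfp, with a lower effect. Trim29, a tripartite-motif protein of basal and squamous epithelium, had means of 106.5 CPM with BSA and 105.9 CPM with FGF10 at 36 h and of 120.2 CPM with BSA and 220.9 CPM with FGF10 at 72 h. It rose beside FGF10 beads by 1.06 (edgeR adjusted p = 0.000821), and its change of effect was 0.89 ± 0.18 (adjusted p = 0.269). Kcns3, a modulatory subunit of voltage-gated potassium channels, had means of 11.99 and 11.3 CPM (BSA and FGF10) at 36 h and of 6.403 and 15.02 CPM at 72 h. The BSA groups differed by -0.90 (edgeR adjusted p = 0.028, but 0.107 with the BSA 72 h pair summed and up to 0.127 without BSA 36 h replicates 2 or 3 or any BSA 72 h library), and its change was 1.31 ± 0.28 (adjusted p = 0.277). These 10 genes were chosen after their values were seen, from 316 or fewer calls per alternative, and each rests on the same 12 libraries.

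Other lists held a few members at an unadjusted p below 0.05, beside 3.71% higher and 3.23% lower over all tested genes, and edgeR called none of them for the change (DESeq2 called Wif1 of the WNT list and Chac1 of the stress list). The WNT list had 3 higher and 0 lower of 22 tested. In it Lgr5, a receptor of R-spondins that marks some stem cells, had means of 13.9 and 6.27 CPM (BSA and FGF10) at 36 h and of 35.8 and 49.6 CPM at 72 h, was called higher at 72 h with both kinds of bead (1.37 and 2.98, edgeR adjusted p = 0.037 and 0.000803, the first 0.119 with the BSA 72 h pair summed and lost without BSA 36 h replicate 3, FGF10 72 h replicates 2 or 3 or any BSA 72 h library), and had a change of 1.61 ± 0.45. The unfolded protein and stress list had 0 higher and 2 lower of 24. The glycolysis and hypoxia list had 1 higher and 1 lower of 32. The chemokine list had 3 and 2 of 21, the NOTCH list 0 and 3 of 16, the inflammatory list 1 and 3 of 24, and the interferon list 0 and 0 of 28. These numbers moved when single libraries were left out; the inflammatory list, for example, had 11 lower without BSA 36 h replicate 1.

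The members with the smallest p of other lists were not called by edgeR. Wfdc12, a secreted whey-acidic-protein-domain inhibitor, had 7.99, 11.9 and 7.08 CPM with BSA and 3.52, 3.79 and 6.30 CPM with FGF10 at 36 h, then 17.4, 19.6 and 13.7 CPM with BSA and 27.4, 24.3 and 25.9 CPM with FGF10 at 72 h. Its groups did not overlap at either time and their order was reversed, with a change of 1.60 ± 0.34 (edgeR adjusted p = 0.277, but 0.0137 by DESeq2 and 0.0101 with a replicate block). Changes of more than 0.8 on the log2 scale were also estimated for Il19 (2.19 ± 0.76), Inhba (1.09 ± 0.32), Hbegf (-1.01 ± 0.29), Dll4 (-1.83 ± 0.74), Fap (-2.17 ± 0.85), Vwf (-1.10 ± 0.49), Eda2r (-0.99 ± 0.44) and Acsl1 (-0.87 ± 0.35). Il6 had 0 counts with FGF10 at 72 h against 35 with BSA, at least 9.53-fold lower with FGF10 at a floor of 3 counts over the group, and its fitted change is not given. The others were Xaf1 (0.63 ± 0.35), Ovol2 (0.65 ± 0.31), Eno1 (0.56 ± 0.20), Plin2 (0.53 ± 0.28), Actn4 (0.52 ± 0.23), Fbl (0.46 ± 0.21), Nectin2 (-0.45 ± 0.16) and Alas2 (0.71 ± 0.54).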
